A study of Mus musculus with 10 samples.

Results

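The enzymes that build triglyceride from glycerol phosphate were described at the transcript level in livers of female mice lacking Etnppl in the whole body. Their 8 genes, Gpam, Agpat2, Agpat3, Lpin1, Lpin2, Lpin3, Dgat1 and Dgat2, were taken by symbol from a table of 47729 genes, and each matched 1 entry. The groups were 5 liver libraries of Etnppl knockout (KO) females and 5 of wild-type (WT) females, with no further allele or agent named. The mice of both genotypes were on chow for 8 weeks and then on a high-fat diet, with 45% of energy as fat, for 10 weeks. Poly(A) RNA was sequenced as read pairs. The labels state neither the part of Etnppl removed nor that libraries are separate animals, so p-values here cover only the spread among libraries, which may be technical. Values are FPKM, fragment numbers divided by transcript length and by the library's own total, as deposited.

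Liver makes triglyceride by adding fatty acids to glycerol 3-phosphate in steps. Glycerol-phosphate acyltransferases give lysophosphatidate, AGPAT enzymes give phosphatidate, lipins remove its phosphate to give diacylglycerol, and DGAT enzymes add the last acyl chain. Diacylglycerol is also the acceptor for phosphoethanolamine in phosphatidylethanolamine synthesis, and phosphoethanolamine is the substrate that Etnppl, a phospho-lyase, breaks down. Products of the pathway are stored in lipid droplets or leave the liver in very low density lipoprotein.

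Etnppl checked the labels. It was at 8.79, 7.75, 10.2, 7.36 and 9.35 FPKM in KO libraries 1 to 5, against 27.6, 56.6, 33.0, 36.7 and 30.6 FPKM in WT libraries 1 to 5. The groups did not overlap, and the fitted log2 fold change was -1.99 (SE 0.167, limma adjusted p = 0.000387). Depth, estimated from the steps between low values, was 21100000 to 28000000 fragments per library. All 9 matched hepatocyte markers were expressed, their sum lying at 65700 to 77100 FPKM in KO and 58300 to 70000 FPKM in WT, and 8 of the 9 had a higher mean in KO. Adipose tissue also uses these enzymes, and its markers were near 0: Lep was 0 in every library, Adipoq reached 0.53 FPKM in KO and 0.08 FPKM in WT, and Plin1 reached 0.04 FPKM in KO and 0.33 FPKM in WT. The 8 adipocyte markers summed to 1.76 to 3.4 FPKM in KO and 0.98 to 2.56 FPKM in WT, mostly from Adrb3. KO replicate 3 stood apart by pancreatic enzyme transcripts, with 151 FPKM over the 7 exocrine pancreas markers, against 0.24 to 0.85 FPKM in the other KO libraries and 0.2 to 1.7 FPKM in WT. WT replicate 2 was highest of all 10 libraries in erythroid markers, at 789 FPKM against 434 to 597 FPKM, in lymphocyte markers, at 12.8 FPKM against 5.19 to 9.55 FPKM, and in stellate cell markers, at 195 FPKM against 142 to 161 FPKM. Of the 11 macrophage markers 10 had a lower mean in KO, with sums of 384 to 559 FPKM in KO and 433 to 598 FPKM in WT, as had 7 of the 8 stellate cell markers, with sums of 142 to 161 FPKM in KO and 148 to 195 FPKM in WT. The count for stellate cell markers leans on WT replicate 2, the library highest in them, and was not repeated without it. Over all genes tested, the fitted log2 fold change was above 0 for 34.9% and below 0 for 65.1%. No marker of these lists passed the test described next. Of the 8 adipocyte markers only 1, Adrb3, was abundant enough to be tested. It was at 2.31 ± 0.579 FPKM in KO and 1.43 ± 0.682 FPKM in WT (limma adjusted p = 0.319). Among all 8, 6 had a higher mean in KO and 1 a lower mean. The hepatocyte marker Cps1 did not overlap between groups, at 655 to 1080 FPKM in KO and 515 to 653 FPKM in WT (limma adjusted p = 0.199). Groups lay apart in that direction for 0.581% of all genes tested. The part of the markers in the results was not tested. In whole liver, fewer cells of a type and less RNA per cell cannot be told apart.

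None of the 8 members passed the test between KO and WT (limma, Benjamini-Hochberg adjusted p under 0.05 over 12395 genes), the lowest adjusted p being 0.455. Over all genes tested, 0.0645% passed, or 8 genes, 4 higher (0.0323%) and 4 lower (0.0323%), a count of 4 to 18 when 1 library was left out (18 without WT replicate 2), and 5 higher and 2 lower with median-of-ratios scaling. At an unadjusted p under 0.05 there were 0 members by limma, against 11.8% of all genes tested, 2.69% higher and 9.07% lower in KO. By the exact two-sided permutation test 1 of 8 members, Agpat3, lay under that value, against 11.7% of all genes tested, a share near that background. The fitted difference was above 0 for 7 members and below 0 for Gpam, with a median log2 fold change of 0.11. Over all genes tested the median was -0.05, with 34.9% above 0 and 65.1% below. With median-of-ratios scaling the median was 0.16 for the members and -0.001 over all genes tested. The shares above and below 0 given here and further below therefore depend on the scaling. For every member the KO and WT ranges overlapped, while 2.79% of all genes tested had ranges that did not overlap.

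**Figure D1:**
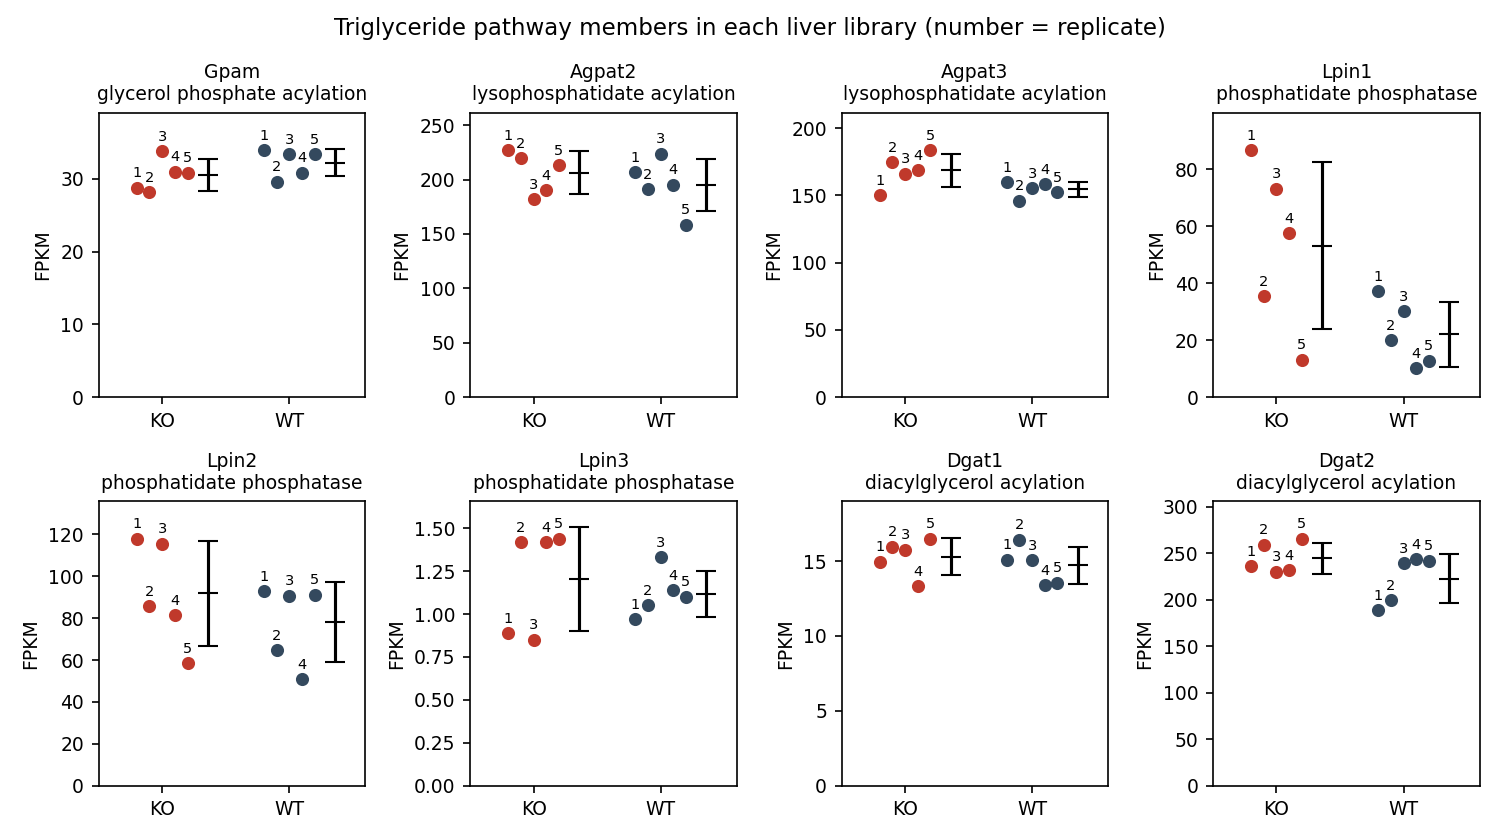
FPKM (linear axis from 0) of the 8 members in each library, KO left and WT right, with the replicate number at each point and the mean with SD beside each group (n = 5). Lpin1 runs between 13.2 and 86.7 FPKM in KO and between 10.1 and 37.2 FPKM in WT, while Gpam stays between 28.2 and 33.9 FPKM in all libraries.

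Per length, Dgat2 was the most abundant member, at a mean of 233 FPKM over the 10 libraries, above 97.1% of the genes tested. It was followed by Agpat2 at 201, Agpat3 at 161, Lpin2 at 85, Lpin1 at 37.6, Gpam at 31.3, Dgat1 at 15 and Lpin3 at 1.16 FPKM. Neighbours in this order were not always separate. Agpat2 and Agpat3 overlapped in range in both genotypes, as did Lpin1 and Gpam. Dgat2 and Agpat2 overlapped in WT and not in KO, and Lpin2 and Lpin1 overlapped in KO and not in WT. Agpat3 and Lpin2, Gpam and Dgat1, and Dgat1 and Lpin3 did not overlap in either genotype.

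At the first acylation the member is Gpam, and its KO and WT values did not differ beyond their spread. Gpat4, an enzyme of the same step outside the members, was lower in 4 of 5 KO libraries than in every WT library. It did not pass after adjustment and is described further below. Gpam (ENSMUSG00000024978), the mitochondrial glycerol-phosphate acyltransferase that starts the pathway and prefers saturated acyl-CoA, lies on the minus strand of chromosome 19 from 55067268 to 55127238 (GRCm38, GENCODE M21). It was at 28.7, 28.2, 33.8, 31.0 and 30.8 FPKM in KO libraries 1 to 5, against 33.9, 29.6, 33.4, 30.8 and 33.3 FPKM in WT libraries 1 to 5. KO replicates 1 and 2 were below every WT library and the other 3 lay within the WT range. Fitted on the log2 scale, the difference was -0.08 (95% CI -0.22 to 0.07, limma adjusted p = 0.69; exact two-sided permutation p = 0.206), so the interval holds differences from 0.857-fold to 1.05-fold of WT. The difference was -0.02 with median-of-ratios scaling. The gene varied little, with a CV of 7.22% in KO and 5.9% in WT.

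At the second step the 2 members are endoplasmic reticulum enzymes. Agpat2 (ENSMUSG00000026922), whose loss in humans causes congenital generalized lipodystrophy, is on the minus strand of chromosome 2 from 26593057 to 26604417. It stood at 227, 219.8, 182, 190.3 and 213 FPKM in KO libraries 1 to 5, against 207, 191, 224, 195 and 159 FPKM in WT libraries 1 to 5. WT replicate 5 was the lowest of all 10 and KO replicate 1 the highest, and the other libraries were mixed. This left a log2 fold change of 0.09 (95% CI -0.12 to 0.29, limma adjusted p = 0.759), which was 0.01 without WT replicate 5. Egfl7, an endothelial gene on the other strand, overlaps Agpat2 and averaged 22.7 FPKM, and although the labels name a directional second-strand step, the sources used here do not give the strand setting of the counting.

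Agpat3 (ENSMUSG00000001211), which handles polyunsaturated acyl chains well, is on the minus strand of chromosome 10 from 78269178 to 78352489. Its values were 150.05, 175, 166, 169 and 184 FPKM in KO libraries 1 to 5, against 159.6, 146, 155, 158 and 152 FPKM in WT libraries 1 to 5. In KO, 4 of 5 libraries lay above every WT library, and KO replicate 1 lay within the WT range. This was the member closest to separation, with 169 ± 12.4 FPKM in KO and 154 ± 5.38 FPKM in WT (mean ± SD of 5 libraries in each genotype). Its fitted log2 difference was 0.12 (95% CI -0.01 to 0.26, limma adjusted p = 0.455), and the exact two-sided permutation test gave p = 0.0476, where 5 against 5 libraries allow no less than 0.00794. The ratio of Agpat2 to Agpat3 averaged 1.23 ± 0.169 in KO and 1.26 ± 0.146 in WT, and the difference of the means turned sign without KO replicate 3 or WT replicate 3.

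The lipins were the variable step. Lipins are phosphatidate phosphatases that move between cytosol and the endoplasmic reticulum, and lipin 1 also acts in the nucleus of hepatocytes as a partner of PGC-1alpha and PPARalpha. In mouse liver Lpin1 is known to respond to fasting and glucocorticoids. The windows of 250 bases before to 50 after the annotated start, from RefSeq (GRCm38.p6), are shown for Lpin1 and Lpin2 because these 2 genes varied most among libraries. The Lpin1 window is chr12:16610917-16611216 on the minus strand and that of Lpin2, the most upstream of its 3 windows, is chr17:71183282-71183581 on the plus strand. Capitals mark the motifs found.
Lpin1: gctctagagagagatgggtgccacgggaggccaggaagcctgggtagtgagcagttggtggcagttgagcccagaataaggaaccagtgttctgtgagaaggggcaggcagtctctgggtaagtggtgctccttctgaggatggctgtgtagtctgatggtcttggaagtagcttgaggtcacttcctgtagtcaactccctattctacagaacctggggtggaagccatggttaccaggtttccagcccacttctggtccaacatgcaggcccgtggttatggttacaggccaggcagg
Lpin2: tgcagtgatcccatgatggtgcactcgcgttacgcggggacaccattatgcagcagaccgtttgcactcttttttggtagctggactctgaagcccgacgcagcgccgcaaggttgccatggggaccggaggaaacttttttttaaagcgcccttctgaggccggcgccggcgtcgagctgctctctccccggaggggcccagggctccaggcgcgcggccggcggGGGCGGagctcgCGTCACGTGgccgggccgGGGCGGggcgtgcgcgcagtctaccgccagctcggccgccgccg
Both strands were searched for 5 motifs. The Lpin2 window held the E-box CACGTG, present in 7.15% of all 32851 windows of this length, and overlapping it the cAMP response element core TGACG, present in 20.8%. It also held the Sp1 box GGGCGG, present in 35.7% of all windows, on both sides of the start site. The Lpin1 window held none of these, nor the forkhead motif TGTTTAC (3.65% of all windows) or the NF-Y box CCAAT (37.4%). The forkhead motif and NF-Y box were also absent from the Lpin2 window shown. Both were present in another Lpin2 window, chr17:71204404-71204703, and the Sp1 box in the remaining one, chr17:71183728-71184027. These matches describe letters in these windows and nothing about binding. Windows were found for 6 of the 8 members, and Dgat1 and Dgat2 were not among them.

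Lpin1 (ENSMUSG00000020593, minus strand of chromosome 12, 16535669 to 16610966) was at 86.7, 35.5, 73.2, 57.6 and 13.2 FPKM in KO libraries 1 to 5, against 37.2, 19.99, 30.1, 10.1 and 12.9 FPKM in WT libraries 1 to 5. KO replicates 1, 3 and 4 lay above every WT library, KO replicate 2 lay just under the highest WT library, and KO replicate 5 was as low as the lower WT libraries. The mean was 53.2 ± 29.4 FPKM in KO and 22.1 ± 11.5 FPKM in WT (SD, n = 5 each). The fitted difference was 2.23-fold (95% CI 0.921 to 5.39; limma adjusted p = 0.457; exact two-sided permutation p = 0.0873). This was the member with the largest fitted difference and also the least certain, since values ran over 6.57-fold within KO and 3.69-fold within WT. Its SD within genotypes, 0.935 on the log2 scale, was larger than that of 99.3% of the genes tested. Leaving out 1 library gave log2 fold changes of 0.92 to 1.58, the highest without KO replicate 5 (limma adjusted p = 0.218). Without KO replicate 3, the library with pancreatic transcripts, it was 0.98.

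Lpin2 (ENSMUSG00000024052), the lipin with the most transcript in these livers, is on the plus strand of chromosome 17 from 71182560 to 71249817. It was at 118, 85.7, 116, 81.5 and 58.6 FPKM in KO libraries 1 to 5, against 92.9, 64.7, 90.8, 50.9 and 91.3 FPKM in WT libraries 1 to 5. KO replicates 1 and 3, the highest for Lpin1, were the only libraries above the WT range. The fit gave a log2 fold change of 0.23 (95% CI -0.27 to 0.72, limma adjusted p = 0.737), which was 0.08 without WT replicate 4 and 0.38 without KO replicate 5. Its SD within genotypes was larger than that of 93.7% of the genes tested.

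Lpin3 (ENSMUSG00000027412, plus strand of chromosome 2, 160880670 to 160906002) was a minor transcript, at 0.89, 1.42, 0.85, 1.42 and 1.44 FPKM in KO libraries 1 to 5, against 0.97, 1.05, 1.33, 1.14 and 1.10 FPKM in WT libraries 1 to 5. The KO values lay on either side of the WT range. KO replicates 1 and 3 were below all WT libraries and KO replicates 2, 4 and 5 were above them. For Lpin3 the log2 fold change was 0.06 (95% CI -0.24 to 0.36, limma adjusted p = 0.898). At the 3470 bases of the longest annotated transcript these levels stand for about 59.8 to 128 fragments per library, so counting error weighs more on it than on the other, more abundant members.

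The balance of the lipins differed among libraries. Lpin1 made up 42.2%, 28.9%, 38.6%, 41.0% and 18.0% of lipin FPKM in KO libraries 1 to 5, against 28.4%, 23.3%, 24.6%, 16.2% and 12.2% in WT libraries 1 to 5. KO replicates 1 to 4 were above every WT library and KO replicate 5 was not. The share averaged 33.7 ± 10.2% in KO and 21.0 ± 6.58% in WT, and Lpin2 exceeded Lpin1 in all 10 libraries, by 1.36-fold to 4.44-fold in KO and 2.5-fold to 7.1-fold in WT. These shares are within a library and do not depend on scaling between libraries. Summed over the 3 genes, lipin transcripts were 73.2 to 206 FPKM in KO and 62.1 to 131 FPKM in WT.

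**Figure D2:**
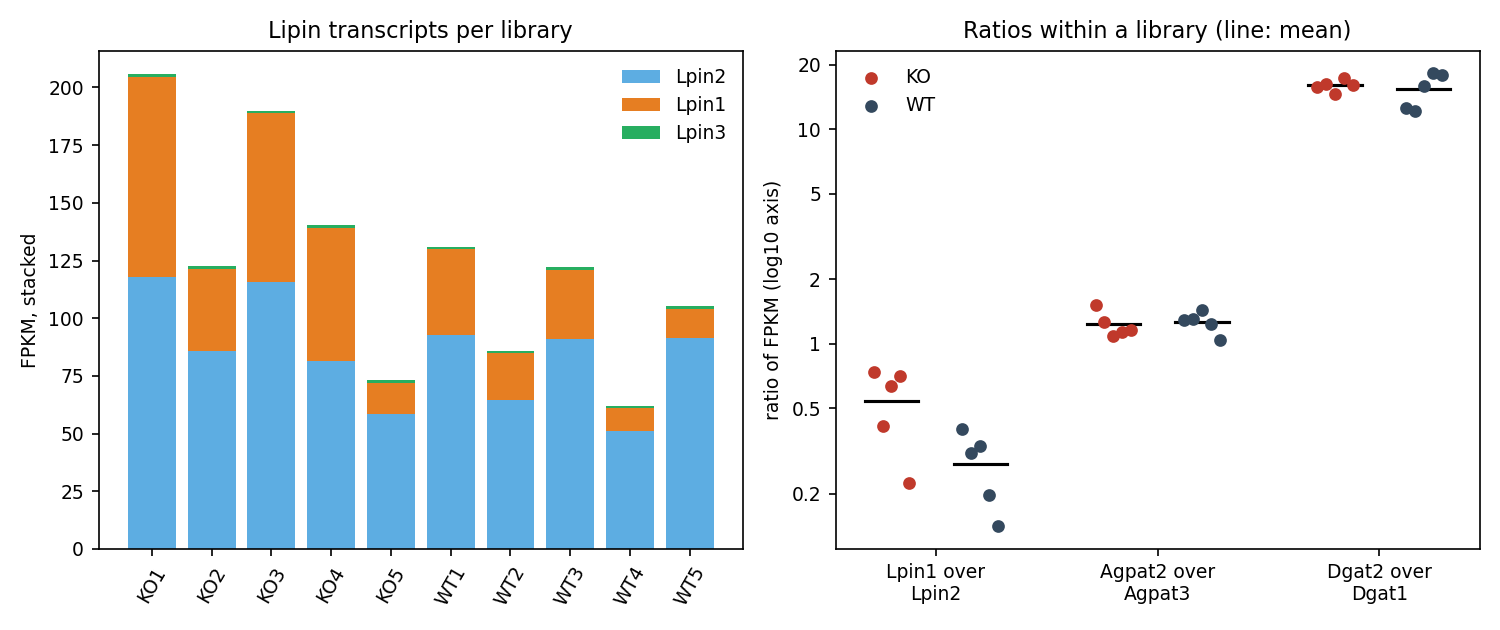
Left, FPKM of the 3 lipins stacked for each library, KO first; right, the ratio of FPKM between members of the same step in each library (log10 axis; line, mean of n = 5). The Lpin1 part is widest in KO replicates 1 and 3, and the ratio of Dgat2 to Dgat1 lies between 12.2 and 18.2 in all libraries.

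The last acylation is shared by unrelated enzymes, DGAT1, which also re-esterifies incoming fatty acid, and DGAT2, which takes newly made fatty acid and sits at lipid droplets. Dgat1 (ENSMUSG00000022555, minus strand of chromosome 15, 76502015 to 76511953) was at 14.96, 15.97, 15.8, 13.3 and 16.5 FPKM in KO libraries 1 to 5, against 15.1, 16.4, 15.1, 13.4 and 13.6 FPKM in WT libraries 1 to 5. The ranges nearly coincided. The log2 fold change was 0.06 (95% CI -0.12 to 0.23, limma adjusted p = 0.82), and the interval reaches from 0.923-fold to 1.17-fold.

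Dgat2 (ENSMUSG00000030747, minus strand of chromosome 7, 99153658 to 99182719) was at 236, 259, 229.8, 231 and 266 FPKM in KO libraries 1 to 5, against 189, 199.5, 239, 243 and 242 FPKM in WT libraries 1 to 5. WT replicates 1 and 2 were below all KO libraries, and KO replicates 2 and 5 were above all WT libraries. The log2 fold change was 0.14 (95% CI -0.04 to 0.32, limma adjusted p = 0.548; exact two-sided permutation p = 0.175), so differences from 0.97-fold to 1.25-fold are within the interval. Dgat2 exceeded Dgat1 by 16.0 ± 0.996 times in KO and 15.3 ± 2.87 times in WT (mean ± SD of the within-library ratio). The difference of the means, KO minus WT, was 0.689 and turned to -0.0138 without WT replicate 1 and -0.102 without WT replicate 2, so it has no stable direction.

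Among libraries of 1 genotype the members did not move as a block. After centring each member on its genotype mean, none of the 28 pairs passed an exact permutation test within genotype with Benjamini-Hochberg adjustment over the pairs. The closest pair was Lpin1 and Lpin2, with r = 0.81 over 10 libraries (exact permutation p = 0.0108, adjusted p = 0.301) and rho = 0.83 (exact permutation p = 0.0103, adjusted p = 0.285). Within genotypes r was 0.93 in KO and 0.66 in WT, 5 libraries each. KO replicate 5 and WT replicate 4, each the lowest in Lpin1 of its genotype, lay farthest from the Lpin1 median after centring. Without these 2 libraries r was 0.50, so the relation rests partly on them. Dgat2 ran the other way from Lpin1, with r = -0.68 (exact permutation p = 0.0301, adjusted p = 0.421), rho = -0.70 (exact permutation p = 0.026, adjusted p = 0.285) and r = -0.58 without the same 2 libraries.

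The members were also set beside 13 regulators, 104 pairs in all, and none passed after adjustment. Srebf1 encodes SREBP1, the insulin-responsive activator of lipogenic genes. It was at 14.7, 16.8, 15.7, 22.1 and 32.7 FPKM in KO libraries 1 to 5, against 14.3, 15.5, 15.3, 28.1 and 20.1 FPKM in WT libraries 1 to 5. The 2 libraries lowest in Lpin1 within their genotype, KO replicate 5 and WT replicate 4, were the highest in Srebf1. The centred values gave r = -0.88 for Lpin1 (exact permutation p = 0.00424, adjusted p = 0.199) with rho = -0.93 (exact permutation p = 0.00111, adjusted p = 0.116). Lpin2 gave r = -0.83 (exact permutation p = 0.00611, adjusted p = 0.199) with rho = -0.87 (exact permutation p = 0.00701, adjusted p = 0.271). Without these 2 libraries r was -0.63 for Lpin1 and -0.40 for Lpin2, so the relation of Lpin2 rests largely and that of Lpin1 partly on them. Within genotypes Lpin1 gave r = -0.86 in KO and -0.91 in WT, and Lpin2 gave r = -0.94 in KO and -0.69 in WT, 5 libraries each. Of the other pairs, Dgat1 with Ppargc1a had the lowest p for Pearson's r in the family (r = -0.82, exact permutation p = 0.00292, adjusted p = 0.199; rho = -0.67, exact permutation p = 0.0549, adjusted p = 0.375; r = -0.73 without KO replicate 4 and WT replicate 4). Agpat3 with Nr1h3, which encodes the oxysterol receptor LXRalpha, gave r = 0.81 (exact permutation p = 0.00764, adjusted p = 0.199), rho = 0.83 (exact permutation p = 0.0203, adjusted p = 0.271) and r = 0.70 without KO replicates 1 and 5. Srebf1 was not the only regulator that ran against Lpin1. Pparg gave r = -0.78 with Lpin1 (exact permutation p = 0.0222, adjusted p = 0.384) and Nr1h3 r = -0.72 (exact permutation p = 0.0342, adjusted p = 0.509). Without KO replicate 5 and WT replicate 4 these were -0.64 and -0.65. Lpin1 with Insig2 gave r = 0.67, and 0.91 without these libraries. Between genotypes Srebf1 averaged 20.4 ± 7.43 FPKM in KO and 18.7 ± 5.74 FPKM in WT, with a log2 fold change of 0.11 (SE 0.24), which was -0.07 without KO replicate 5.

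**Figure D3:**
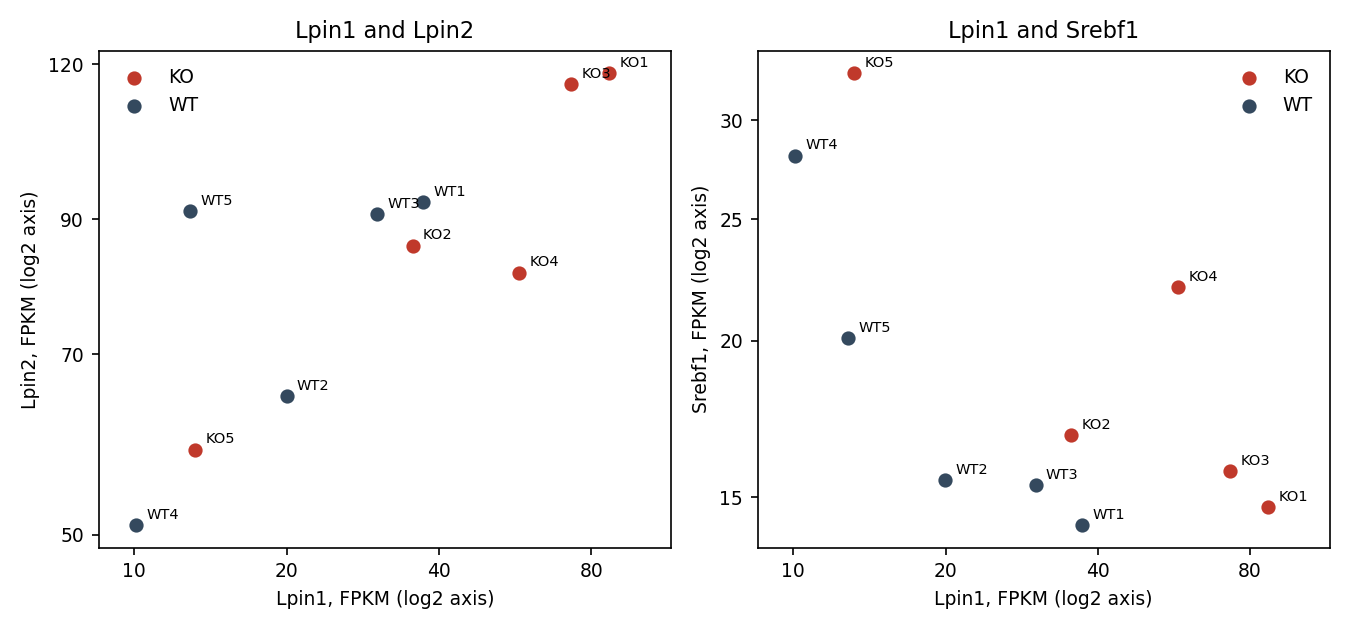
Lpin1 against Lpin2 (left) and against Srebf1 (right), in FPKM on log2 axes, 1 point per library, KO red and WT dark. KO replicate 5 and WT replicate 4 combine low Lpin1 (13.2 and 10.1 FPKM) with the highest Srebf1 (32.7 and 28.1 FPKM).

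Over the 10 libraries, centred in the same way, the genes most like Lpin1 among the 12395 tested were Desi2 (r = 0.96), Susd6 (r = 0.94) and Cdkn1a (r = 0.94). Cdkn1a, which encodes the cell cycle inhibitor p21, was at 75.4 ± 44.7 FPKM in KO and 52.3 ± 36.7 FPKM in WT. Most like Dgat2 were Olig1 (r = 0.97), Rfesd (r = 0.95) and Gm14760 (r = 0.94), all below 5 FPKM. Most like Gpam were Ankrd13c (r = 0.93), Gm10157 (r = 0.92) and Smap1 (r = 0.92). These are descriptions of the best matches among many genes over 10 libraries, without a test.

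No other enzyme of the same steps passed. Of 10 listed, 9 were tested, 2 had a fitted difference above 0 and 7 below, against 65.1% of all genes tested below 0, and the median log2 fold change was -0.16. Gpat4, the glycerol-phosphate acyltransferase of the endoplasmic reticulum, was at 41.6, 35.9, 38.8, 34.9 and 32.1 FPKM in KO libraries 1 to 5, against 51.4, 42.3, 51.1, 41.1 and 40.2 FPKM in WT libraries 1 to 5. In KO, 4 of 5 libraries lay below every WT library, with a log2 fold change of -0.30 (SE 0.0921, limma adjusted p = 0.228; exact two-sided permutation p = 0.0238). With median-of-ratios scaling the log2 fold change of Gpat4 was -0.24 (limma adjusted p = 0.482). Mogat1, which acylates monoacylglycerol, was at 1.93 ± 0.581 FPKM in KO and 3.36 ± 1.32 FPKM in WT, a log2 fold change of -0.63 (SE 0.226, limma adjusted p = 0.288). Gpat3, listed as Agpat9, was at 8.67 ± 1.83 FPKM in KO and 10.4 ± 1.87 FPKM in WT (limma adjusted p = 0.541). Agpat1 was at 7.37 ± 0.805 FPKM in KO and 7.18 ± 1.24 FPKM in WT, with a log2 fold change of 0.05 that was -0.02 without KO replicate 5. Mogat2 was below the filter of 0.5 FPKM.

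The 4 genes that make or use glycerol 3-phosphate all had a fitted difference below 0, as had 65.1% of all genes tested. Their median log2 fold change was -0.28, and none passed over all genes. Gk, glycerol kinase, was at 55.4, 52.8, 56.0, 52.6 and 50.2 FPKM in KO libraries 1 to 5, against 72.9, 63.2, 69.4, 65.1 and 64.3 FPKM in WT libraries 1 to 5. Every KO library lay below every WT library, as for 2.21% of all genes tested. The log2 fold change was -0.32 (95% CI -0.45 to -0.19; limma adjusted p = 0.0795; exact two-sided permutation p = 0.00794, the smallest possible), 1.25-fold lower in KO. With median-of-ratios scaling the log2 fold change of Gk was -0.27 (limma adjusted p = 0.214). Gpd2, the mitochondrial glycerol-phosphate dehydrogenase, was at 8.77 ± 0.83 FPKM in KO and 11.7 ± 2.83 FPKM in WT (log2 fold change -0.36, limma adjusted p = 0.414), and it passed only without WT replicate 2 (log2 fold change -0.53, limma adjusted p = 0.0467), the library highest in erythroid, lymphocyte and stellate cell markers, whose part in this was not tested. Gpd1l was at 6.73 ± 0.901 FPKM in KO and 8.08 ± 1.07 FPKM in WT (limma adjusted p = 0.403). Gpd1, the most abundant of the 4, was at 214 ± 40.6 FPKM in KO and 247 ± 27.2 FPKM in WT (log2 fold change -0.22, limma adjusted p = 0.499). Its KO range, 177 to 277 FPKM, took in the WT range, 201 to 268 FPKM.

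**Figure D4:**
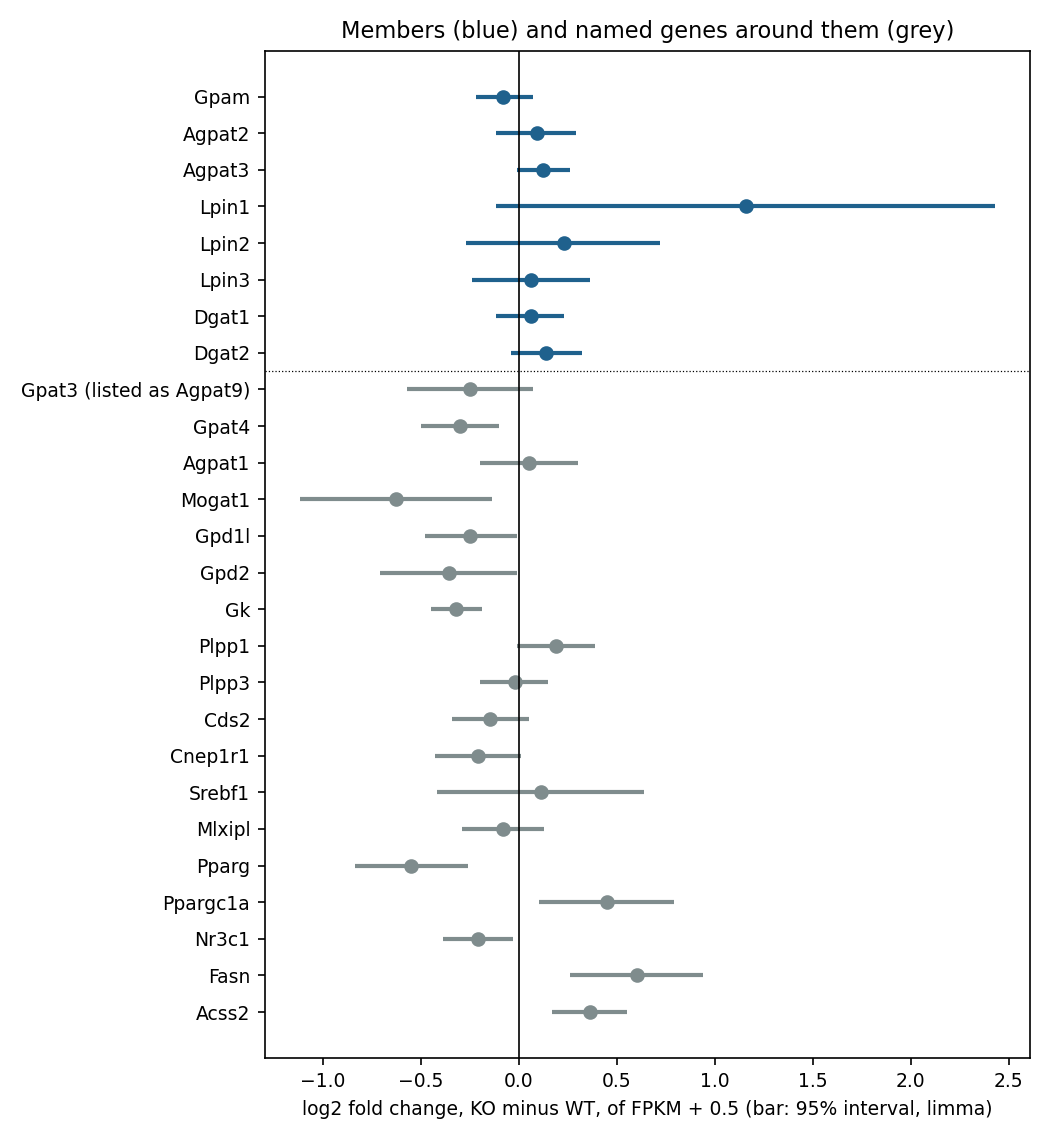
Fitted log2 fold changes (KO minus WT, of FPKM + 0.5) with 95% intervals from limma for the 8 members (blue, above the dotted line) and the named genes around them (grey). The intervals of all 8 members cross 0 and that of Lpin1 is the widest, at -0.12 to 2.43; Gk lies at -0.32.

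Of 10 listed genes that compete for phosphatidate and diacylglycerol, 8 were tested and none passed. Their median log2 fold change was -0.01, with 2 above 0 and 6 below, against 65.1% of all genes tested below. Plpp3, a lipid phosphate phosphatase of the plasma membrane, was at 96.8 ± 10.6 FPKM in KO and 98.3 ± 7.95 FPKM in WT, with a log2 fold change of -0.02 that was 0.03 with median-of-ratios scaling and 0.02 without KO replicate 4 or WT replicate 1. Plpp1 was at 17.5 ± 2.23 FPKM in KO and 15.3 ± 1.23 FPKM in WT (log2 fold change 0.19, limma adjusted p = 0.452). For Plpp1, 4 of 5 KO libraries lay above every WT library. Cds2, which turns phosphatidate to CDP-diacylglycerol, was at 9.0 ± 0.672 FPKM in KO and 10.0 ± 1.2 FPKM in WT (log2 fold change -0.15, limma adjusted p = 0.566). In the list of lipin phosphatase and lipid droplet assembly genes, 1 of 6 was above 0, against 34.9% of all genes tested, and none passed. Cnep1r1, a subunit of the phosphatase that acts on lipins, was at 8.09 ± 1.18 FPKM in KO and 9.35 ± 0.729 FPKM in WT (limma adjusted p = 0.448).

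Of the 13 regulators, 8 were above 0 and 5 below, against 34.9% of all genes tested above 0, and none passed. Pparg, a factor that promotes lipid storage, was at 4.74, 5.10, 5.44, 5.28 and 7.59 FPKM in KO libraries 1 to 5, against 6.57, 10.3, 7.75, 8.53 and 9.26 FPKM in WT libraries 1 to 5. KO replicates 1 to 4 lay below every WT library (log2 fold change -0.55, SE 0.134, limma adjusted p = 0.143). Ppargc1a, which encodes PGC-1alpha, was at 5.4 ± 1.43 FPKM in KO and 3.76 ± 0.569 FPKM in WT (log2 fold change 0.45, SE 0.16, limma adjusted p = 0.285). Nr3c1, the glucocorticoid receptor gene, was at 14.8 ± 1.54 FPKM in KO and 17.2 ± 1.46 FPKM in WT (limma adjusted p = 0.338). Mlxipl, which encodes the carbohydrate-responsive factor ChREBP, was at 75.5 ± 7.34 FPKM in KO and 80.2 ± 11.1 FPKM in WT (limma adjusted p = 0.784).

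Genes that make the fatty acids used by this pathway were above 0 in 8 of 9 cases, against 34.9% of all genes tested, with a median log2 fold change of 0.31, and none passed. Fasn, the fatty acid synthase, had a log2 fold change of 0.60 (SE 0.156, limma adjusted p = 0.175) and Acss2, which makes acetyl-CoA from acetate, 0.36 (SE 0.0884, limma adjusted p = 0.143). Set side by side, the fitted log2 fold change was 0.60 for Fasn, 0.14 for Dgat2, -0.08 for Gpam and -0.32 for Gk, and the differences between these genes were not tested.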

How the data were processed

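The authors deposited FPKM for 47729 genes in 10 named columns, 1 per library, rounded to 2 decimals. Columns were matched to samples by the library names in the labels. The submitters' processing notes name mm10 and the tools DESeq, DESeq2, RSEM, STAR and R 4.0.2. The sources used here do not give their roles, the annotation or the strand setting. FPKM is scaled to each library's own total, so abundant transcripts can shift the rest.

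From these values, log2(FPKM + 0.5) was tested for the 12395 genes averaging 0.5 FPKM or more, KO against WT, with limma 3.58.1 in R 4.3.3 (trend, robust prior, two-sided, Benjamini-Hochberg over all 12395, threshold 0.05), a procedure checked on simulated data. Intervals are 95% confidence intervals. Exact permutation tests used all 252 regroupings, or permutations within genotype for correlations. Depth was fitted so that low values of single-transcript genes became whole fragments (94.0% to 97.5% within 0.1). The lengths the authors used are unknown, so counts were not rebuilt and no count model was fitted.

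The members, lists and tests were chosen with earlier results of these data known, and the pairs with regulators were added later. Genes named are the members, Etnppl, pathway genes with an unadjusted p under 0.05 or the lowest p of a list, 10 fixed genes and the 3 genes most like Gpam, Lpin1 and Dgat2. Cell type markers, regulators in pairs and Gpd1, the most abundant gene of its list, are named besides. Coordinates are from GENCODE M21 (GRCm38, the assembly of mm10). Alternatives varied pseudocount, filter, scaling, prior, weights, the replicate number as a block, threshold and libraries. Figures were drawn with matplotlib 3.10.9.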

Additional observations from a re-analysis of the deposited data

Results flagged for a closer look

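Of 64 sets of 5 libraries checked, 3 held a library whose gap to the nearest of the others exceeded 0.71 of the range, and chance gives about 1 in 20. None of the 16 sets of the members did. Pparg was at 7.59 FPKM in KO replicate 5, with the next KO library at 5.44 FPKM. Agpat1 was at 8.78 FPKM in the same library, with the next at 7.21 FPKM. Plpp3 was at 112.46 FPKM in WT replicate 1, with the next WT library at 95.5 FPKM.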

How the results depend on the processing

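No member passed under any of the 24 alternatives, and none turned its direction. A mean of at least 2 FPKM leaves out Lpin3, which then has no value. Leaving out 1 library gave a median of the members of 0.08 to 0.13 (log2), with -0.12 to -0.05 for Gpam, 0.01 to 0.14 for Agpat2 and for Lpin3, 0.09 to 0.17 for Agpat3, 0.92 to 1.58 for Lpin1, 0.08 to 0.38 for Lpin2, 0.02 to 0.10 for Dgat1 and 0.08 to 0.17 for Dgat2. The difference, KO minus WT, in the ratio of Dgat2 to Dgat1 ran from -0.102 to 1.41 and in that of Agpat2 to Agpat3 from -0.103 to 0.0125, both turning sign within the spread of the libraries.

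The count of all genes called, 8, was 5 with no filter, without trend and robust prior, or with the replicate number as a block, 18 with array weights, 30 at an adjusted p of 0.1, and 4 to 18 with 1 library left out (4 without KO replicate 2 or WT replicate 1 or 5, 5 without KO replicate 1 or 3 or WT replicate 3 or 4, 18 without WT replicate 2). Of the other pathway genes, 1 was called at an adjusted p of 0.1, Gk, and 0 to 1 with 1 library left out, the 1 being Gpd2 without WT replicate 2. Plpp3 turned to 0.03 with median-of-ratios scaling. With 1 library left out, its log2 fold change ran from -0.08 to 0.02 (turning without KO replicate 3 or 4 or WT replicate 1), that of Agpat1 from -0.02 to 0.11 (turning without KO replicate 5 or WT replicate 1 or 2) and that of Srebf1 from -0.07 to 0.27 (turning without KO replicate 5). The cause was not tested.

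Same-numbered libraries correlated at 0.12, -0.02, 0.07, 0.00 and 0.20 after centring on the genotype mean. In KO, 3 of 5 libraries correlated best with their own number. These values do not settle whether the numbers pair the samples. With the block Lpin1 had a limma adjusted p of 0.287. FPKM keeps no counting error per gene, which limits Lpin3 and Mogat1 most.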
